A study of Mus musculus with 2 samples.

Results

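The genes described here encode core enzymes of the Ras to ERK cascade: the small GTPases Nras and Hras, the kinases Braf and Araf, the dual-specificity kinases Map2k1 and Map2k2, and the kinase Mapk3. They were found by symbol among the rows of the count tables, and all 7 were present, out of 33696 genes. Their messenger RNA was followed through the nuclear classes of the mouse hippocampus at postnatal day 19, in a control library and in a library from littermates with a conditional deletion of Cic.

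In this cascade an activated growth factor receptor recruits adaptor proteins and an exchange factor, which load Ras with GTP. Ras then engages the Raf kinases (Braf, Araf), these phosphorylate the MEK kinases (Map2k1 and Map2k2 encode MEK1 and MEK2), and MEK phosphorylates ERK (Mapk3 encodes ERK1). ERK in turn relieves repression by Capicua, the protein of Cic, a transcriptional repressor whose known targets include the ETS factors Etv1, Etv4 and Etv5 and inhibitors that feed back on the cascade. In postnatal neurons and glia the cascade is known for its part in growth, myelination and synaptic plasticity. The enzymes are regulated mostly by phosphorylation and GTP loading, which a count of RNA does not measure.

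Control mice were Cicflox/flox, and the mice labelled knockout were Emx1-Cre; Cicflox/flox, so both groups carried the floxed allele. Emx1-Cre drives recombination in the dorsal telencephalic lineage, which gives rise to the excitatory neurons of the hippocampus and to astrocytes and many oligodendrocytes there; most inhibitory neurons and microglia arise outside it. Each group was 1 library, made from 1 hippocampus of each of 3 mice, 2 males and 1 female, pooled before nuclei were isolated. With 1 library per group no difference could be tested, and every interval given covers counting error only, not variation between mice or preparations.

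The analysis used 21783 control nuclei with a median of 9786 unique molecular identifiers (UMIs, counted molecules), and 20569 nuclei labelled knockout with a median of 8765. They fell into 15 classes of at least 100 nuclei per library, each called "-like" because the name rests on marker genes alone, while 10.94% of control nuclei and 12.699% of those labelled knockout got no name. The dentate granule-like class was made of 2 clusters that split by library, one with 2949 control and 103 knockout nuclei and one with 1439 and 3270. The cycling progenitor-like class held a cluster of 77 and 86 nuclei with no marker of that class among its leading genes. Of the 7 markers of the class, 5 were raised in this cluster. Their mean log2 fold was 0.74, against 5.71 and 6.8 in the other clusters of the class. This cluster had 17.7% and 21.1% of the class's nuclei but 72.4% and 80.2% of its UMIs. Summed levels of the class thus mostly describe it and not the clusters with stronger cycling markers. The libraries shared 128 barcodes among the nuclei used. A level is given as CPM, the UMIs of a gene per 1000000 UMIs of that class and library. Levels are compared between classes and libraries, not between genes.

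Cic, the gene the design deletes, had a higher RNA level in the labelled knockout in 13 of 15 classes and a slightly lower one in 2, inhibitory-like and microglia-like nuclei. The counting interval lay above equality in 6 of the 15 classes and covered it in 9, the 2 lower ones included. Cic stood at 9.06 CPM in control and 12.3 CPM in labelled knockout dentate granule-like nuclei, at 6.53 and 12.6 CPM in CA1-like nuclei, and at 9.86 and 9.74 CPM in inhibitory-like nuclei. Counts per gene do not show whether the floxed exons were present, so Cic RNA does not check the label. The ETS factor Etv4 stood at 1.07 and 112 CPM in dentate granule-like nuclei and at 2.10 and 82.6 CPM in CA1-like nuclei.

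The promoters of these genes were searched for the Capicua octamers, because the repressor binds such sites next to some of its targets. The windows were RefSeq's for GRCm38.p6, from 250 bases before to 50 after the start of each gene, and the motifs TGAATGAA, TGAATGGA, TCAATGAA and TCAATGGA were searched on both strands. A window was given for 6 of the 7 genes, all except Mapk3, and 0 of the 6 held an octamer, while 3.84% of all 32851 windows, and 4.45% of the 27025 genes they belong to, did. Among the other pathway genes an octamer was found for 3 of 8 feedback inhibitors (Spred3, Dusp6, Spry2), 2 of 8 receptor adaptors (Grb2, Shc4), 1 of 7 exchange factors (Rasgrp3) and 1 of 8 GTPase-activating proteins (Rasa4), and for 0 of 13 kinases and factors downstream of ERK, 0 of 10 other Ras-family GTPases, 0 of 11 scaffolds and 0 of 14 parallel MAP kinase genes. The 100 bases before the start are shown for 1 gene of each of the upper 3 tiers, to show windows without the motif, and below them for 3 pathway genes with it. Letters run 5′ to 3′ on the strand of the gene, and capitals mark the octamer, which in Spry2 lies on the opposite strand.
Hras, chr7:141194005-141194104, minus strand: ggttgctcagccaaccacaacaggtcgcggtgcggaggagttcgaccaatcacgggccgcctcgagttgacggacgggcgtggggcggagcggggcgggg
Braf, chr6:39725464-39725563, minus strand: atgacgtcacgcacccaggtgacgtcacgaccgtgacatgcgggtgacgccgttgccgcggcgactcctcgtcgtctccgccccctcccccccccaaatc
Map2k1, chr9:64253606-64253705, minus strand: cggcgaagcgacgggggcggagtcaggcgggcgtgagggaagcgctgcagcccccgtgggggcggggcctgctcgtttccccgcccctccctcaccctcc
Spred3, chr7:29168648-29168747, minus strand: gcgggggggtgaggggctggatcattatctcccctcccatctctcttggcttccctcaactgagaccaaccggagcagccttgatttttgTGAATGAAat
Spry2, chr14:105896820-105896919, minus strand: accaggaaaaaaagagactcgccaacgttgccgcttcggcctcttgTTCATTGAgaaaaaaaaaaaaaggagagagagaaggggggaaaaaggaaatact
Grb2, chr11:115699929-115700028, minus strand: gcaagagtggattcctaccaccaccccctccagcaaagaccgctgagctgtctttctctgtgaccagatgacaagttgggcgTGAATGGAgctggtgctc
The stretches of Hras, Braf and Map2k1 were 71%, 69% and 78% G or C, and those of Spred3, Spry2 and Grb2 were 54%, 43% and 56%. Over the whole 250 bases before the start, the 6 members ranged from 48.4% in Nras and 51.2% in Araf to 68.4% in Map2k1, beside a median of 52.4% over all windows. Spred3, Spry2 and Grb2 each hold 1 of the 4 octamers, a different one in each, and had unlike ratios in dentate granule-like nuclei: 8.87 against 55.7 CPM for Spred3, 12.6 against 5.64 CPM for Spry2 and 66.1 against 62.1 CPM for Grb2, control first. A match describes these letters only, and no match says nothing of Capicua at sites outside the window.

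Counts of genes past a given size took only genes that reached 50 UMIs and 10 CPM in the library with the higher level. Ratios of sparser genes are given with their intervals and stay out of those counts. Of the 105 pairs of gene and class, 23 were at least 25% apart between libraries and 4 at least 2-fold, whatever their counts, where 25% means that the higher level exceeded the lower by 25% or more. Of all pairs of gene and class with at least 10 UMIs in a library, which all 105 had, 32.7% and 5.34% were that far apart. Of the 105 pairs, 77 met the minimum and 28 did not, and 18 of the sparse 28 were 25% apart, where 49.9% of all sparse pairs with at least 10 UMIs in a library were. All 4 past 2-fold were among the sparse pairs, beside 9.88% of all sparse pairs: Mapk3 in CA2-like, CA1-like and Cajal-Retzius-like nuclei and Hras in radial glia-like nuclei. None of the 77 was 2-fold apart, against 1.49% of all pairs that met the minimum, a share that ran from 0.114% to 4.11% over the 15 classes, and 5 of the 77 (6.49%) were at least 25% apart, against 18.1% of all such pairs. The counting interval of the ratio excluded equality in 19 of the 77 pairs (24.7%), 9 with the higher and 10 with the lower level in the labelled knockout, against 32.0% of all pairs of gene and class that met the minimum. Each pooled share of the 77 is below that of all genes, and these differences in share were not tested. The 77 pairs repeat the same few genes over classes of the same 2 libraries and include 0 pairs of Hras.

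By class, 6 of the 7 genes met the minimum in dentate granule-like nuclei, and 0 were 2-fold or 25% apart, against 3.35% and 18.8% of all genes. In immature dentate granule-like nuclei 6 met it and 0 passed either size, against 0.383% and 9.19%. The same count was 0 of 5 in CA3-like nuclei (all genes 1.62% and 16.9%), 0 of 5 in CA1-like nuclei (4.11% and 26.4%), 0 of 5 in inhibitory-like nuclei (0.114% and 4.95%) and 0 of 6 in oligodendrocyte-like nuclei (3.13% and 25.4%). The median log2 ratio over the members that met the minimum was -0.02 in dentate granule-like nuclei beside 0.01 over all genes, 0.05 beside 0.07 in CA3-like nuclei, -0.08 beside 0.09 in CA1-like nuclei and 0.03 beside 0.04 in inhibitory-like nuclei. The 5 pairs past 25% were Mapk3 in cycling progenitor-like nuclei (all genes 18.1%), Map2k2 in CA2-like nuclei (33.2%), Mapk3 and Map2k1 in astrocyte-like nuclei (2 of 6 members there, all genes 13.5%) and Map2k2 in committed oligodendrocyte precursor-like nuclei (21.7%). Of these, the log2 ratio of Mapk3 in the cycling class was 0.50, and 0.25 in the female nuclei, the latter short of 25%. It was 1.23 without the cluster of 77 and 86 nuclei. The log2 ratio of Map2k2 in the committed class was 0.34, and 0.09 in nuclei with no mitochondrial UMI, the latter short of 25%.

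**Figure D1:**
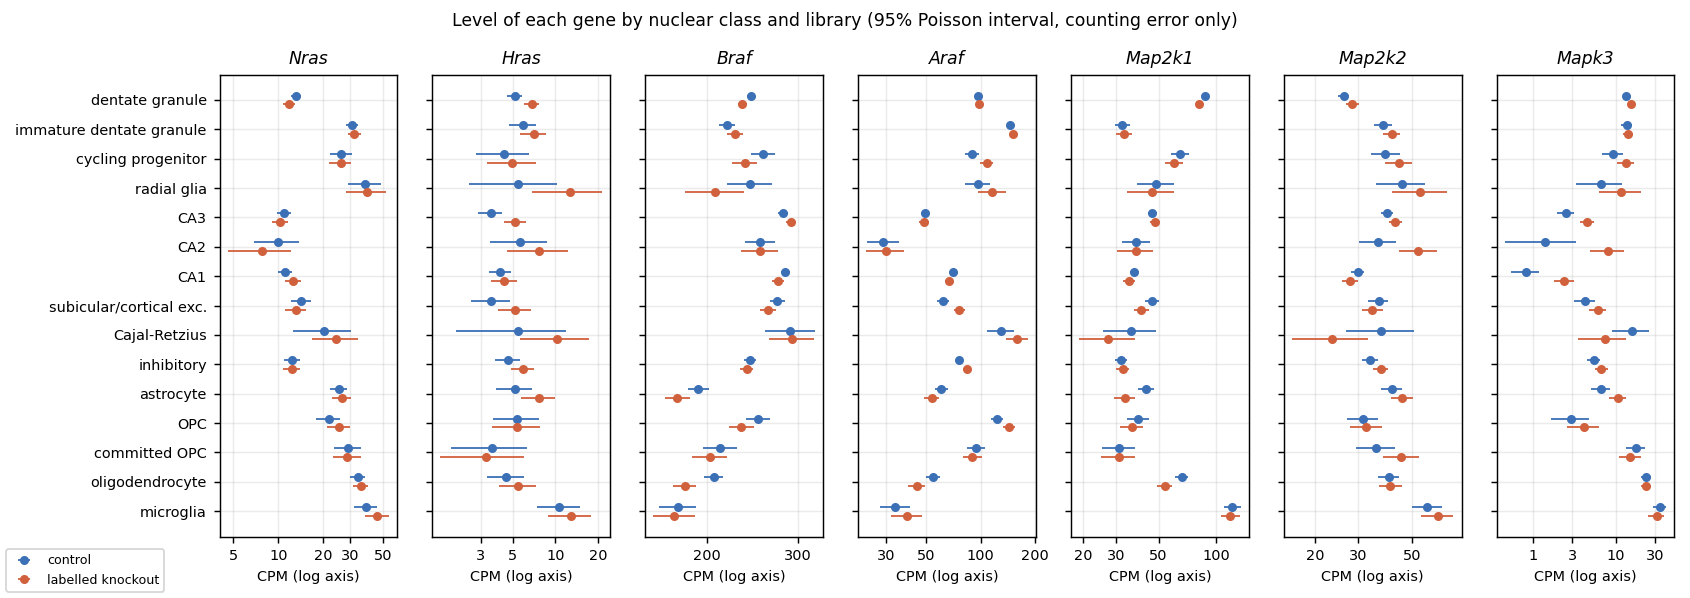
Level of each gene in CPM (horizontal log axis, with its own range per gene) in the 15 nuclear classes, with control in blue and the labelled knockout in orange; bars are 95% Poisson intervals for counting error. The points of both libraries lie close together for Braf in every class, while Mapk3 runs from 0.823 CPM in control CA1-like to 33.9 CPM in control microglia-like nuclei.

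Nras (ENSMUSG00000027852, chromosome 3), a GTPase that carries the signal from receptors to Raf, had its highest levels in microglia-like and radial glia-like nuclei and its lowest in CA3-like and CA2-like nuclei. Its levels in control and labelled knockout were 38.4 and 45.8 CPM in microglia-like, 38.1 and 38.8 CPM in radial glia-like, 33.8 and 35.4 CPM in oligodendrocyte-like, 11.0 and 12.5 CPM in CA1-like, and 9.91 and 7.73 CPM in CA2-like nuclei. By median UMIs, microglia-like and radial glia-like nuclei were the shallowest of the 15 classes, and CA3-like and CA2-like nuclei the deepest. Dentate granule-like nuclei were also deeper than immature ones, with medians of 11782.5 and 10853 against 4797 and 3790 UMIs. Whether depth or free RNA contributes to the Nras levels was not tested. Mature granule nuclei held less Nras than immature ones. The level was 13.1 CPM in control and 11.8 CPM in labelled knockout dentate granule-like nuclei, and 30.9 and 32.2 CPM in the immature class, so that the log2 ratio of mature over immature was -1.24 (95% counting interval -1.41 to -1.07) in control and -1.44 (-1.64 to -1.25) in the labelled knockout. Within classes, the ratio of labelled knockout over control ran from -0.34 to 0.26 on the log2 scale, and its interval covered equality in 15 of 15 classes. The size and sign of the Nras ratio differed when fewer UMIs or fewer nuclei were used. With nuclei thinned to 2000 UMIs the inhibitory-like class had -0.29, CA1-like nuclei -0.34, CA3-like nuclei -0.36 and the dentate granule-like class -0.34, each below the counting interval of the full value. In CA1-like nuclei the full value was 0.18, and it was -0.61 in nuclei with no mitochondrial UMI. In CA3-like nuclei these values were -0.08 and 0.34. The thinned values and those without mitochondrial UMIs rest on fewer UMIs than the full ones. Their own counting error is wider and is not given, so a shift cannot be told apart from it.

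Hras (ENSMUSG00000025499, chromosome 7), a close relative of Nras, was counted sparsely and met the minimum of 50 UMIs and 10 CPM in 0 of 15 classes. Control and labelled knockout held 280 and 259 UMIs of it in dentate granule-like nuclei (5.19 and 6.80 CPM), 103 and 127 in CA3-like nuclei (3.50 and 5.21 CPM), 101 and 113 in inhibitory-like nuclei (4.63 and 5.92 CPM), and 134 and 95 in CA1-like nuclei (4.09 and 4.36 CPM). The level was higher in the labelled knockout in 13 of 15 classes, with a median log2 ratio of 0.35. The counting interval lay above equality in dentate granule-like nuclei, at 0.39 (0.14 to 0.64), and in CA3-like nuclei, at 0.57 (0.19 to 0.96). The CA3 value was 0.08 with each nucleus thinned to 2000 UMIs and 0.15 in nuclei with no mitochondrial UMI. Both rest on fewer UMIs than the full value, and their own wider counting error is not given. They thus cannot show whether the full ratio depends on depth.

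The Hras ratio was also read in female and male nuclei apart, and no difference between the sexes was tested. The split sorts nuclei by Xist and Y-linked UMIs, and female nuclei come from 1 mouse in each library. The log2 ratio of Hras was 0.77 (0.33 to 1.23) in female and 0.22 (-0.14 to 0.58) in male dentate granule-like nuclei, 1.03 and 0.14 in female and male CA3-like nuclei, and 1.00 and 0.26 in female and male inhibitory-like nuclei. It was 0.09 and 0.05 in female and male CA1-like nuclei, 0.04 and 1.10 in astrocyte-like nuclei and -0.85 and 0.50 in oligodendrocyte-like nuclei. These values rest on few UMIs: the oligodendrocyte-like class held 45 and 46 of Hras before the split by sex. In dentate granule-like nuclei the intervals of the 2 sexes overlapped. Over the 15 classes the ratio was positive in 10 among female and 12 among male nuclei, with medians of 0.19 and 0.29, and the sexes had opposite signs in 8. Opposite signs were not particular to Hras. They were found in 10 classes for Nras, 7 each for Braf, Map2k1 and Mapk3, 6 for Araf and 5 for Map2k2. The mitochondrial share of UMIs differed between the libraries in female nuclei, both in classes where the female Hras ratio was high and in others. In female dentate granule-like nuclei that share was 0.0228% in control and 0.0661% in the labelled knockout, in female CA3-like nuclei 0.00906% and 0.0312%, and in female inhibitory-like nuclei 0.0214% and 0.116%. It was also higher in female CA1-like nuclei, at 0.0143% and 0.0507%, where the female Hras ratio was 0.09. In female oligodendrocyte-like nuclei, where the Hras ratio was -0.85, the share was 0.0313% and 0.0948%. In male nuclei it was 0.0350% and 0.0448% in the dentate granule-like class, 0.0196% and 0.0146% in the CA3-like class, and 0.0440% and 0.0580% in the inhibitory-like class. In a shallow unnamed cluster whose leading genes include Hspa8, Vgf and Gapdh, Hras stood at 39.3 and 37.0 CPM from 15 and 5 UMIs, above its level in each of the 15 classes. Genes with a span of at most 10 kb, as Hras has with 4.90 kb, had a median log2 ratio of 0.11 in dentate granule-like nuclei, where longer genes had 0.00, and 0.14 against 0.06 in CA3-like nuclei. The part of mitochondrial RNA, of the female pool and of gene length in the Hras result was not tested.

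Braf (ENSMUSG00000002413, chromosome 6), a Raf kinase with high basal activity, was the most even member. It ranged over the classes by 1.65-fold in control and 1.69-fold in the labelled knockout. Its levels were 290 and 292 CPM in Cajal-Retzius-like, 281 and 291 CPM in CA3-like, 284 and 274 CPM in CA1-like, 243 and 234 CPM in dentate granule-like, 206 and 181 CPM in oligodendrocyte-like, and 175 and 173 CPM in microglia-like nuclei. CA3-like and CA1-like nuclei thus held more than oligodendrocyte-like and microglia-like nuclei in both libraries. Oligodendrocyte precursor-like nuclei stood near CA2-like nuclei in control, at 251 beside 254 CPM, with 233 beside 253 CPM in the labelled knockout. At least 1 Braf UMI was found in 90.7% of control and 88.4% of labelled knockout dentate granule-like nuclei, and in 37.3% and 36.7% once nuclei with at least 2000 UMIs were thinned to that number. The thinned share was 29.1% and 26.9% in microglia-like nuclei, which also hold Braf RNA, so no class served as a blank. It leaves out 664 of 1489 control and 959 of 1476 labelled knockout microglia-like nuclei, which had fewer than 2000 UMIs. The log2 ratio ran from -0.22 to 0.05, with the interval below equality in 5 classes, at -0.19 (-0.28 to -0.09) in oligodendrocyte-like (-0.33 to -0.10 over the alternatives) and -0.06 (-0.09 to -0.02) in dentate granule-like nuclei. It lay above equality in CA3-like nuclei, at 0.05 (0.00 to 0.10), and that value turned to -0.02 and -0.03 when libraries were scaled by a median of ratios or by TMM, the trimmed mean of M values. In the reference annotation Braf overlaps Ndufb2 on the opposite strand, and whether counting used strand is not given in the sources used here.

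Araf (ENSMUSG00000001127, chromosome X), a Raf kinase with lower activity, differed more between classes than Braf. It was highest in immature dentate granule-like nuclei, at 145 and 152 CPM, in Cajal-Retzius-like nuclei, at 129 and 159 CPM, and in oligodendrocyte precursor-like nuclei, at 123 and 144 CPM. It was lowest in CA2-like nuclei, at 29.2 and 30.1 CPM, and in microglia-like nuclei, at 33.9 and 39.4 CPM. Oligodendrocyte-like nuclei held less Araf than their precursors, at 54.6 and 44.4 CPM, a log2 ratio of -1.17 (-1.34 to -1.01) in control and -1.69 (-1.88 to -1.51) in the labelled knockout. The log2 ratio of labelled knockout over control was 0.30 (0.16 to 0.44) in subicular or cortical excitatory-like, 0.27 (0.10 to 0.45) in cycling progenitor-like (0.55 without the cluster that lacks cycling markers), 0.22 (0.07 to 0.37) in oligodendrocyte precursor-like and 0.14 (0.04 to 0.24) in inhibitory-like nuclei, and -0.30 (-0.49 to -0.11) in oligodendrocyte-like nuclei. In nuclei with no mitochondrial UMI the value was 0.0091 in the subicular or cortical class, 0.77 in the cycling class and -0.17 in the oligodendrocyte-like class. In inhibitory-like nuclei it was 0.26 in female and -0.01 in male nuclei. Araf overlaps Syn1, a synapsin gene, on the opposite strand.

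**Figure D2:**
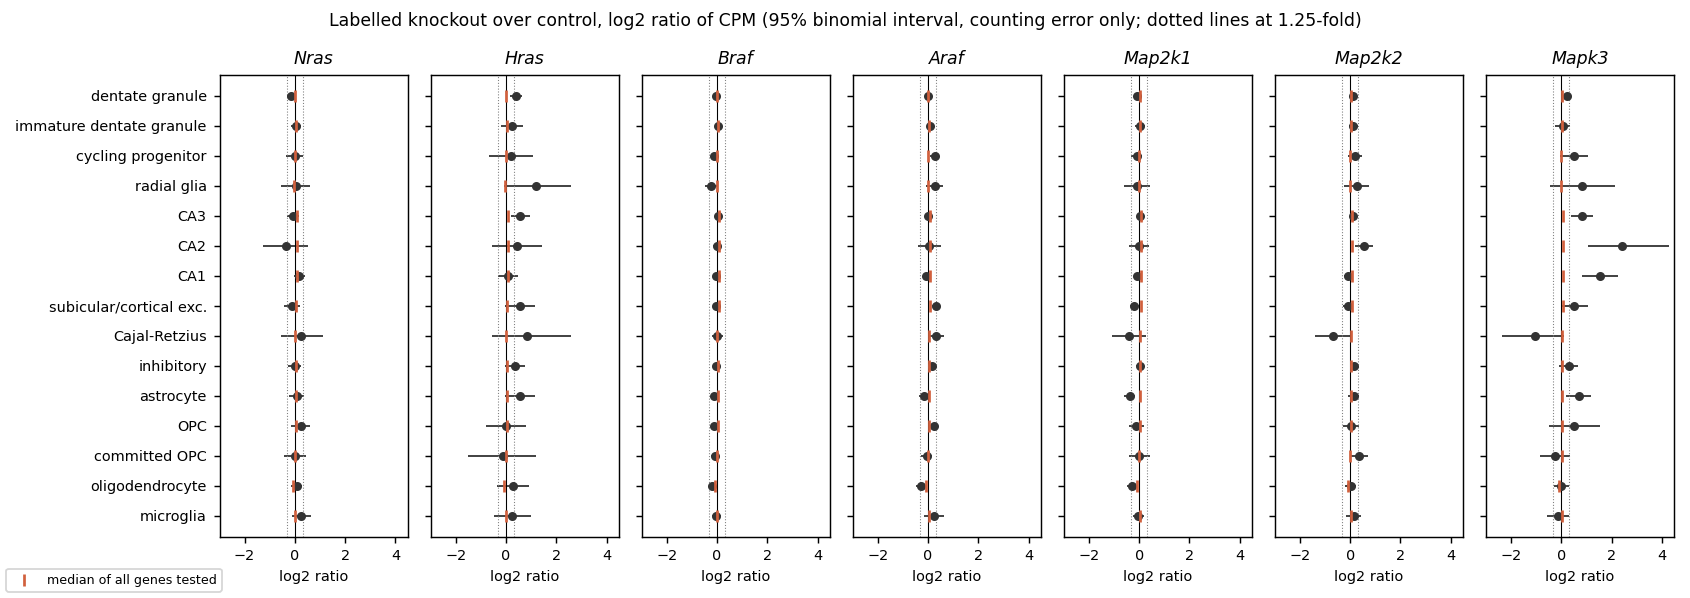
Log2 ratio of labelled knockout over control (horizontal axis) for each gene and class, with 95% binomial intervals for counting error in black and the median of all genes that met the minimum as an orange tick; dotted lines stand where the higher level exceeds the lower by 25%. Most points lie within the dotted lines, and Mapk3 reaches 2.43 in CA2-like and 1.52 in CA1-like nuclei.

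Map2k1 (ENSMUSG00000004936, chromosome 9), which encodes MEK1, separated mature from immature granule nuclei in the opposite direction to Nras. Dentate granule-like nuclei held 87.2 and 81.8 CPM and immature ones 32.2 and 33.0 CPM. The log2 ratio of mature over immature was 1.43 (1.30 to 1.58) in control and 1.31 (1.16 to 1.46) in the labelled knockout. The levels of both libraries in the mature class lay above those of both libraries in CA1-like nuclei, at 37.3 and 35.1 CPM, and below those in microglia-like nuclei, at 122 and 119 CPM.

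Between libraries the log2 ratio of Map2k1 lay above the class median of all genes in 0 of 15 classes. Braf was much alike, above it in 1 class, with a negative ratio in 12 and the interval below equality in 5. In some classes the Map2k1 ratio lay next to that median, which its counting interval covered. It was 0.03 beside 0.05 in immature dentate granule-like and 0.05 beside 0.07 in CA3-like nuclei. How often other genes lie below the median was not counted. The Map2k1 ratio was negative in 11 of 15 classes and positive in 4, and its counting interval lay below equality in 4. One of these was the dentate granule-like class, at -0.09 (-0.16 to -0.03), but within its cluster of 1439 and 3270 nuclei the ratio had the opposite sign, at 0.21 (0.11 to 0.31), with 70.5 and 81.4 CPM. Astrocyte-like nuclei held 401 and 243 UMIs of it, 43.1 and 33.1 CPM, a log2 ratio of -0.38 (-0.62 to -0.15), which was -0.56 in female and -0.39 in male nuclei. With nuclei thinned to 2000 UMIs it was -0.0243, so the difference of 25% was not seen there. That value rests on fewer UMIs, and its own wider counting error is not given. Oligodendrocyte-like nuclei held 66.1 and 53.7 CPM, a log2 ratio of -0.30 (-0.48 to -0.12) where the median of all genes was -0.09, and it was -0.32 in female and -0.25 in male nuclei. In inhibitory-like nuclei the ratio was 0.03 (-0.13 to 0.19), with 0.38 in female and -0.08 in male nuclei. Map2k1 overlaps Gm48855 and Uchl4 on the opposite strand.

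Map2k2 (ENSMUSG00000035027, chromosome 10), which encodes MEK2, was spread more evenly. It stood at 58.0 and 63.8 CPM in microglia-like, 39.5 and 42.8 CPM in CA3-like, 29.9 and 27.8 CPM in CA1-like and 26.2 and 28.4 CPM in dentate granule-like nuclei, the lowest of the 15 classes when both libraries are ranked together. Map2k1 and Map2k2 therefore ranked the granule class differently, as the second highest of 15 for Map2k1 and the last for Map2k2. The ratio between libraries was 0.12 (0.00 to 0.23) in dentate granule-like nuclei and 0.56 (0.19 to 0.92) in CA2-like nuclei, the latter from 128 and 124 UMIs in 147 and 113 nuclei. In CA2-like nuclei it was 0.39 in females and 0.76 in males.

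Mapk3 (ENSMUSG00000063065, chromosome 7), which encodes ERK1, varied most between classes, by 41.1-fold in control and 13.1-fold in the labelled knockout. Microglia-like nuclei held 33.9 and 31.2 CPM, oligodendrocyte-like nuclei 23.3 and 23.4 CPM, committed oligodendrocyte precursor-like nuclei 17.7 and 15.0 CPM, and dentate granule-like nuclei 13.2 and 15.3 CPM. CA3-like nuclei held 2.52 and 4.47 CPM and CA1-like nuclei 0.823 and 2.39 CPM, the lowest of the 15 classes in both libraries. Granule nuclei were thus above CA1-like nuclei by 15.8-fold in control and 6.35-fold in the labelled knockout.

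In the oligodendrocyte lineage Mapk3 was low in precursors and high from the committed stage on. Precursor-like nuclei held 2.89 and 4.09 CPM from 16 and 22 UMIs. The log2 ratio of committed over precursor was 2.58 (1.80 to 3.51) in control and 1.85 (1.11 to 2.67) in the labelled knockout, and that of oligodendrocyte-like over precursor-like nuclei was 2.97 (2.28 to 3.84) and 2.49 (1.88 to 3.22). Of the other members, Map2k1 differed over that last step by 0.76 and 0.57, Nras by 0.64 and 0.48, and Araf in the other direction as given above.

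The highest ratios between libraries among the 105 pairs were those of Mapk3 in CA2-like and CA1-like nuclei, and the lowest was that of Mapk3 in Cajal-Retzius-like nuclei, all from few UMIs. Cajal-Retzius-like nuclei held 17 and 10 UMIs, 15.5 and 7.33 CPM, a log2 ratio of -1.06 (-2.37 to 0.13), which ran from -2.40 to -0.28 over the alternatives. Committed oligodendrocyte precursor-like nuclei had -0.24 (-0.83 to 0.34). CA1-like nuclei held 27 control and 52 labelled knockout UMIs, a log2 ratio of 1.52 (0.84 to 2.26), where 4.3% of the genes with at least 20 UMIs were 2-fold higher. The ratio was 1.27 (0.26 to 2.40) in female nuclei, from 13 and 23 UMIs, and 2.00 (0.85 to 3.42) in male nuclei, from 8 and 24 UMIs. With called doublets kept it was 0.97, just short of 2-fold. A Mapk3 UMI was found in 1.56% of control and 3.76% of labelled knockout CA1-like nuclei, against 6.98% and 5.35% of microglia-like nuclei at a far lower depth (medians of 18063.5 and 15946 UMIs in CA1-like, 2130 and 1719.5 in microglia-like nuclei). At 2000 UMIs per nucleus they came to 0.231% and 0.676% in CA1-like and 5.94% and 5.22% in microglia-like nuclei. Nuclei with fewer UMIs were left out, 664 of 1489 control and 959 of 1476 labelled knockout microglia-like nuclei and 0 CA1-like nuclei. These microglial shares thus describe the deeper nuclei of the class. The CA1 share is thus below that of microglia in both libraries, and whether free RNA contributes to it was not tested.

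CA3-like nuclei held 74 and 109 UMIs of Mapk3, a log2 ratio of 0.83 (0.39 to 1.27). This 1.77-fold difference did not reach the 2-fold size that 2.41% of genes with at least 20 UMIs reached in that class. CA2-like nuclei held 5 and 19 UMIs, a log2 ratio of 2.43 (1.06 to 4.30), which ran over the alternatives from 0.56 in nuclei with no mitochondrial UMI to 3.62 in male nuclei. Astrocyte-like nuclei held 61 and 78 UMIs, a log2 ratio of 0.69 (0.19 to 1.20), and dentate granule-like nuclei 713 and 583, a log2 ratio of 0.21 (0.05 to 0.37). With nuclei thinned to 2000 UMIs the ratio was 0.32 for the CA3-like class and 0.01 for the granule class. These thinned values rest on fewer UMIs, and their own wider counting error is not given, so a shift cannot be told apart from it. The 3 unnamed clusters whose best marker set was CA1 had 65 and 126 UMIs (0.99), 30 and 48 UMIs (1.04), and 29 and 63 UMIs (0.44, -0.20 to 1.14). In oligodendrocyte-like nuclei, where Mapk3 was abundant, the ratio was 0.01 (-0.27 to 0.29), in microglia-like nuclei -0.12 (-0.55 to 0.30) and in inhibitory-like nuclei 0.30 (-0.07 to 0.67). Mapk3 spans 6.22 kb, and genes of at most 10 kb had a median log2 ratio of 0.20 in CA1-like nuclei, where longer genes had 0.08. The mitochondrial share of CA1-like nuclei was 0.0143% and 0.0507% in females and 0.0205% and 0.0211% in males. The part of mitochondrial RNA and gene length in the Mapk3 result was not tested.

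**Figure D3:**
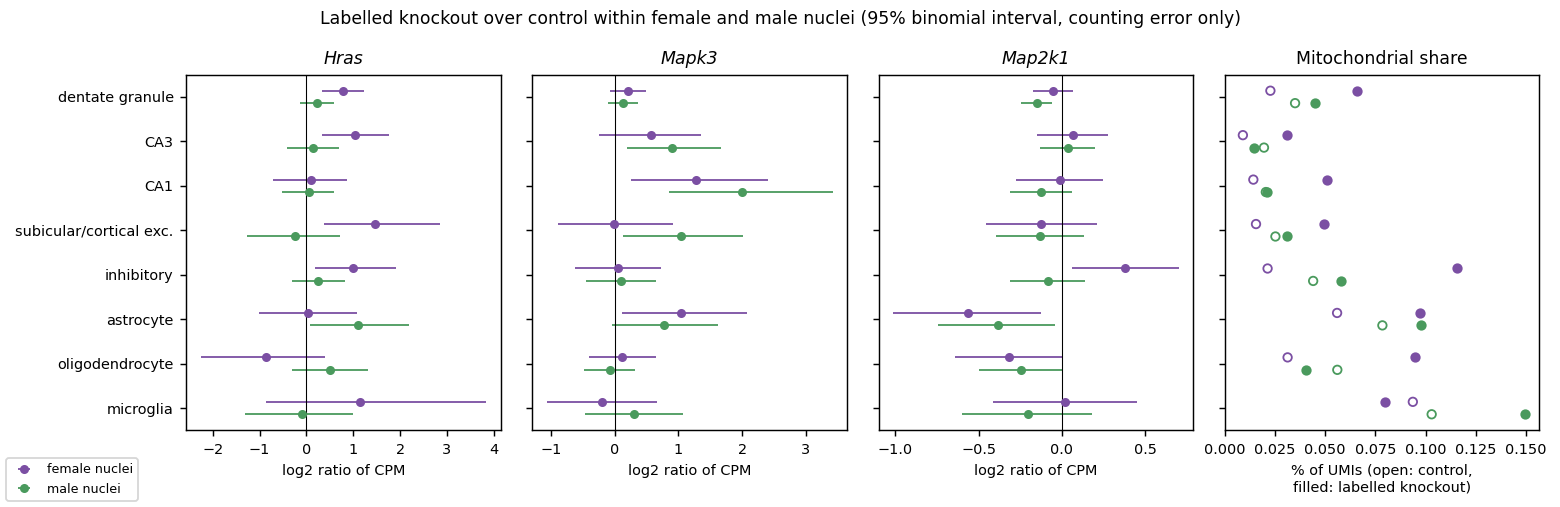
Log2 ratios of Hras, Mapk3 and Map2k1 within female (purple) and male (green) nuclei of 8 classes, with 95% binomial intervals for counting error, and the mitochondrial share of UMIs in the right panel (open circles control, filled circles labelled knockout). The Hras points of female nuclei lie to the right of the male ones in dentate granule-like and CA3-like nuclei, at 0.77 against 0.22 and 1.03 against 0.14, and to the left in astrocyte-like nuclei, at 0.04 against 1.10.

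The 2 granule clusters split by library, so each member was also read within them. In the cluster with 1439 control and 3270 knockout nuclei the log2 ratio was -0.31 (-0.54 to -0.07) for Nras, 0.58 (0.21 to 0.99) for Hras, -0.03 (-0.09 to 0.02) for Braf, -0.10 (-0.18 to -0.01) for Araf, 0.21 (0.11 to 0.31) for Map2k1, 0.18 (0.01 to 0.36) for Map2k2 and 0.17 (-0.05 to 0.41) for Mapk3. For the whole class they were -0.145, 0.39, -0.06, 0.02, -0.09, 0.12 and 0.21 in the same order, so that Map2k1 and Araf changed sign. The other cluster held 2949 control nuclei but 103 of the labelled knockout, and its intervals covered equality for all 7 members, with ratios from -0.27 for Mapk3 to 0.37 for Map2k2 and -0.17 for Hras, the last from 209 and 6 UMIs. Map2k1 stood at 93.9 and 93.0 CPM in that cluster.

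The order of the classes was read from both libraries together, with 14 steps between neighbours for each gene. The levels of neighbouring classes did not overlap between libraries in 8 steps for Nras, 6 for Araf, 5 for Map2k1, 3 each for Braf, Map2k2 and Mapk3, and 1 for Hras. That criterion rests on 1 library per group and leaves out counting error. The counting interval of the ratio of neighbours also excluded equality in each library in 3 of these steps for Araf, 2 for Map2k1, 1 for Mapk3 and 0 for Nras, Hras, Braf and Map2k2. For Mapk3 this was the step from microglia-like to oligodendrocyte-like nuclei. For Map2k1 they were the steps from microglia-like to dentate granule-like nuclei and from these to cycling progenitor-like nuclei. The level of the cycling class mostly describes its cluster of 77 and 86 nuclei. For Araf they were the steps below oligodendrocyte precursor-like, CA1-like and CA3-like nuclei. The order of other neighbours is a description of these levels. Steps were counted for the members only, so the counts do not show how the members stand beside other genes.

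Genes with a class profile most like each member were ranked by Pearson correlation of log2(CPM + 1) over the 15 classes of the control library, among 5359 candidates. These correlations are descriptions over classes that share libraries and depth. The closest to Nras was Pbrm1 (r 0.97 in control, 0.93 in the labelled knockout), to Braf Arhgap44 (0.90 and 0.90), to Araf Kdm4c (0.86 and 0.83), to Map2k1 Rilpl1 (0.87 and 0.84), to Map2k2 Mafg (0.89 and 0.63), and to Mapk3 Riok3 (0.91 and 0.73). The next genes were Gnai3 and Ttf1 for Nras, Ncoa7 and Spata7 for Braf, Psip1 and Cbx6 for Araf, Btaf1 and Pkig for Map2k1, Chd2 and Necap2 for Map2k2, and Mvb12b and Mef2d for Mapk3. For Hras they were Rnf167 (0.92 and 0.72), Rcbtb2 and Vps29, the last with 0.87 in control and 0.22 in the labelled knockout. Between members, Mapk3 and Nras had 0.73 and 0.63, and Braf and Nras -0.67 and -0.70.

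Among the genes around the core, 47 to 77 per class met the minimum, and at least 1 of them was 2-fold apart in 14 of 15 classes. Inhibitory-like nuclei had 0, or 1 with called doublets kept. Over all classes 81 of 989 pairs of list gene and class (8.19%) were 2-fold apart, beside 1.49% of all pairs, and the lists were chosen with earlier results known. In microglia-like nuclei, where 0.259% of all genes were 2-fold apart, these were Etv4, which was higher, and Rasal1, a GTPase-activating protein, which was lower. That class was the shallowest by median UMIs, and whether free RNA contributes to its Etv4 level was not tested. In dentate granule-like nuclei, where 3.35% of all genes were 2-fold apart, 2 of 8 receptor adaptors that met the minimum were at least 2-fold higher in the labelled knockout, Shc3 (20.5 against 258 CPM) and Dok5 (36.2 against 83.4 CPM), which bind activated receptors. Of 5 exchange factors, which load Ras with GTP, 1 was 2-fold lower, Rasgrp1 (25.9 against 3.54 CPM). Of 5 feedback inhibitors 2 were higher, Spred3 and Spred1 (57.7 against 124 CPM), which hold back Ras and Raf, and 1 was lower, Spry2. Spry4, another Sprouty inhibitor, was under 10 CPM and so outside the count, with 8 and 297 UMIs, 0.148 and 7.79 CPM. Of 11 kinases and factors downstream of ERK 4 were higher: Etv4, Etv5 (1.46 against 90.6 CPM), Rps6ka6, a ribosomal S6 kinase (5.93 against 26.5 CPM), and Etv1 (30.1 against 110 CPM). None of 8 GTPase-activating proteins, 9 other Ras-family GTPases or 13 scaffolds passed, and 1 of 10 parallel MAP kinase genes was lower, Mapk4 (109.8 against 51.0 CPM). The list medians of the log2 ratio were -0.001 for adaptors, -0.24 for exchange factors, -0.14 for GTPase-activating proteins, 0.0043 for other GTPases, 0.08 for scaffolds, 0.79 for feedback inhibitors, 0.22 for downstream genes and 0.06 for parallel modules, beside 0.01 over all genes.

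In CA3-like nuclei, where 1.62% of all genes were 2-fold apart, 4 of 10 adaptors were at least 2-fold higher, Gab1, Shc4, Shc3 and Dok5, with 2.45 against 18.9 CPM for Gab1 and 56.7 against 179 CPM for Shc3. Spred3 was the 1 of 4 feedback inhibitors that was at least 2-fold higher (17.4 against 40.4 CPM). Spred1 and Spred2 were higher by less, at log2 ratios of 0.66 and 0.38, and Spry2 was lower, at -0.50. Spry4, under 10 CPM and so outside the count, had 30 and 226 UMIs, 1.02 and 9.26 CPM. Etv4, Etv5 and Etv1 were the 3 of 10 downstream genes that were at least 2-fold higher. None passed among 5 exchange factors, 8 GTPase-activating proteins, 10 other GTPases, 13 scaffolds and 11 parallel module genes. The list medians ran from -0.06 for GTPase-activating proteins to 0.52 for feedback inhibitors, beside 0.07 over all genes.

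In CA1-like nuclei, where 4.11% of all genes were 2-fold apart, 3 of 9 adaptors were higher, Shc4, Dok5 and Shc3 (64.3 against 186 CPM for Shc3). The exchange factor Rasgrf2 (5.18 against 15.4 CPM, 1 of 5) and the neuronal GTPase Rit2 (107.6 against 236 CPM, 1 of 10) were also higher, though with called doublets kept 0 exchange factors passed. Of 10 downstream genes Etv4 and Etv5 were higher and the S6 kinase Rps6ka3 was lower (93.2 against 32.0 CPM). None of 5 feedback inhibitors, 8 GTPase-activating proteins, 13 scaffolds and 9 parallel module genes passed. With called doublets kept 1 feedback inhibitor did, and with median-of-ratios scaling 1 GTPase-activating protein. Spred3 fell just short, at 21.5 against 42.6 CPM, and Spry2 was lower, at 17.7 against 15.3 CPM. Spry4, under 10 CPM and so outside the count, had 71 and 136 UMIs, 2.17 and 6.24 CPM. The list medians ran from -0.16 for GTPase-activating proteins to 0.81 for downstream genes, beside 0.09 over all genes.

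In oligodendrocyte-like nuclei, where 3.13% of all genes were 2-fold apart, Shc3 (1.70 against 107 CPM) and Shc4 were the 2 of 9 adaptors that were higher, and Rasal2, a GTPase-activating protein, was 1 of 7 (298.4 against 1602.6 CPM). The scaffold Ksr1, which holds Raf, MEK and ERK together, was the 1 of 13 that was lower (32.5 against 12.9 CPM). Of 4 feedback inhibitors Spred3, Spred1 and Spred2 were higher, and of 10 downstream genes Etv5, Etv4 and Etv1. None passed among 3 exchange factors, 7 other GTPases and 9 parallel module genes, and the list medians ran from -0.25 for exchange factors to 1.16 for feedback inhibitors, beside -0.09 over all genes. In inhibitory-like nuclei 0 genes of the 8 lists passed 2-fold in either direction, or 1 downstream gene with called doublets kept, beside 0.114% of all genes, with list medians from -0.06 to 0.09. Etv4 there had 49 and 179 UMIs, 2.25 and 9.38 CPM, under the minimum of 10 CPM, and whether free RNA contributes was not tested.

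**Figure D4:**
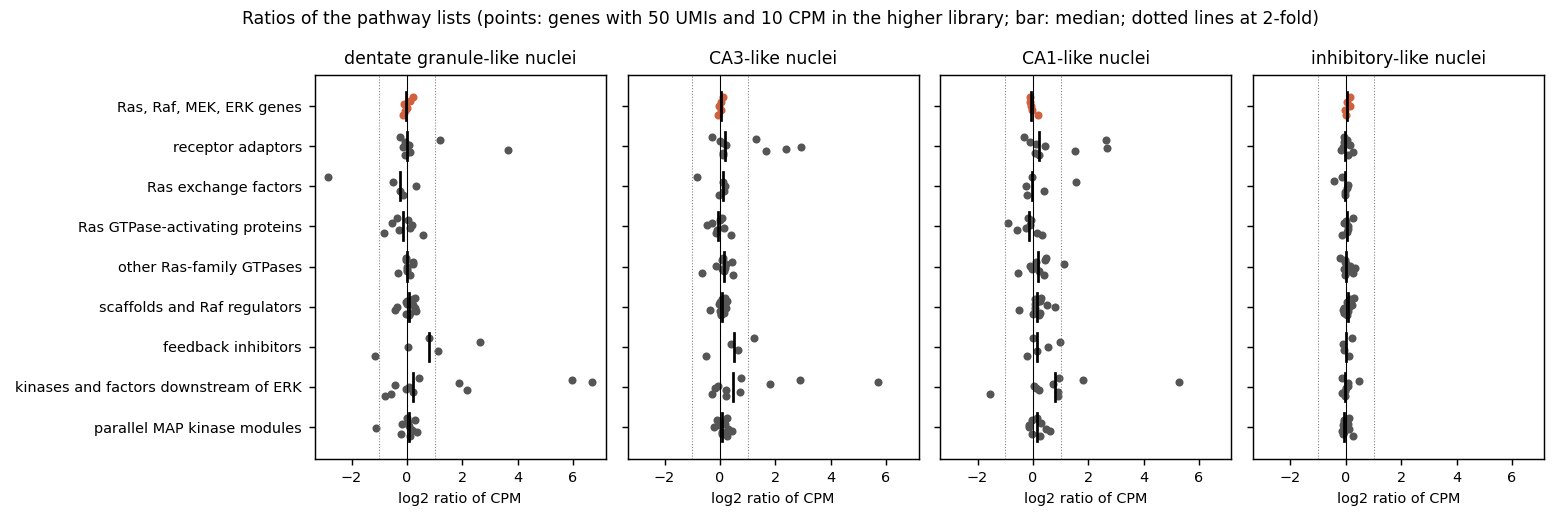
Log2 ratio of labelled knockout over control for the genes of each list (points) that met the minimum, with the list median as a black bar, in 4 classes; dotted lines stand at 2-fold. The core genes in orange lie between the dotted lines in every panel, while adaptors and downstream genes have points beyond them in the granule and both pyramidal panels, and feedback inhibitors in the granule and CA3-like panels.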

How the data were processed

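Nuclei of 2 libraries, 1 per group and each from 3 mice, were sequenced with a 10x 3′ assay. Each deposited matrix holds raw UMI counts per gene and barcode, which the authors obtained from Cell Ranger 8.0.1 and mm39, per the submitters' processing notes. Whether counting used strand is not given in the sources used here. The libraries held 314453640 and 252995761 UMIs in 25907 and 23207 barcodes, control first.

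Nuclei with at least 500 genes and at most 5% mitochondrial UMIs were kept. Called doublets (Scrublet in scanpy 1.11.5, 3277 and 2474) were removed. Nuclei were clustered (3000 variable genes, 30 principal components, 15 neighbours, Leiden resolution 1) into 38 clusters. Clusters were named from 21 marker sets with at least 3 markers raised and a mean marker log2 fold of 0.5. That last minimum was set after the clusters were seen. The 5 clusters under it, with 5.4676% and 6.8841% of nuclei, stayed out of the classes, and some of them also failed another rule. A cluster also got no name where markers of another set outnumbered its own among its leading genes. The same held for a shallow cluster with no marker of its own set there. UMIs were summed per library and class. Ratios of CPM have 0.5 UMI added to each sum and an exact conditional binomial 95% interval. Levels have Poisson intervals, and all intervals cover counting error only. With 1 library per group no test was made. Steps were checked on simulated counts.

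The members and lists were chosen with earlier results of these data known. Named genes are the 7 members, Cic, up to 3 genes per list and direction past 2-fold, and the 3 genes most alike in class profile. Some named genes fall outside that rule and were chosen after their values were seen. These are Dok5, Spred1, Spred2 and Spry2 in CA3-like, Spred3 and Spry2 in CA1-like and Etv1 in dentate granule-like nuclei. The others are Grb2, Dusp6, Rasgrp3, Rasa4, Spry4, Rasal1 and Etv4 in inhibitory-like and microglia-like nuclei. Gene spans and overlaps come from a GRCm38 annotation, which matched 32012 of 33696 identifiers. Alternatives were other scalings (TMM from edgeR 4.0.16, median of ratios), doublets kept, other filters and clusterings, nuclei of 1 sex, and thinning. Added after seeing the data were nuclei with no mitochondrial UMI, 1 granule cluster alone, and the cycling class without its cluster of 77 and 86 nuclei.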

Additional observations from a re-analysis of the deposited data

Results flagged for a closer look

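The log2 ratio of Braf between libraries had counting intervals on opposite sides of equality in different classes. It was above equality in 1 class, CA3-like nuclei, and below in 5. Among these was the cycling progenitor-like class, where it was 0.0252 without the cluster of 77 and 86 nuclei. The CA3-like value of Braf exceeded the oligodendrocyte-like value by 0.2389. The median of all genes also differed, at 0.07 in CA3-like and -0.09 in oligodendrocyte-like nuclei, and Braf was below it in each. The CA3-like value of Braf was 0.05, and ran over the alternatives from -0.0317 to 0.08. The difference in Braf was not tested, with 1 library per group.

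Araf likewise lay above equality in 4 classes and below in 1, the oligodendrocyte-like class, and the value in subicular or cortical excitatory-like nuclei exceeded the oligodendrocyte-like value by 0.5988. The median of all genes also differed, at 0.06 in the subicular or cortical class and -0.09 in the oligodendrocyte-like class. The subicular or cortical value of Araf was 0.30, and 0.0091 in nuclei with no mitochondrial UMI. The difference in Araf was not tested either.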

How the results depend on the processing

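No paired analysis was possible because each group holds 1 library. Of the member values in dentate granule-like, CA3-like, CA1-like and inhibitory-like nuclei under the alternatives, 294 stayed within the counting interval and 49 did not. That interval belongs to the full value. Values from thinned nuclei or from a part of the nuclei rest on fewer UMIs and have a wider counting error than it covers. The cause was not tested.

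With nuclei thinned to 2000 UMIs, the log2 ratio was -0.34 for Nras, -0.0169 for Braf, 0.32 for Map2k2 and 0.0134 for Mapk3 in dentate granule-like nuclei; -0.36 for Nras, 0.0755 for Hras, 0.17 for Araf, -0.21 for Map2k2 and 0.32 for Mapk3 in CA3-like nuclei; -0.34 for Nras, -0.10 for Braf, -0.25 for Araf, -0.34 for Map2k1 and 0.15 for Map2k2 in CA1-like nuclei; and -0.29 for Nras, -0.11 for Braf and -0.29 for Map2k1 in inhibitory-like nuclei.

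In female nuclei alone it was 0.77 for Hras and 0.13 for Araf in the dentate granule-like class, 1.03 for Hras in CA3-like, 0.50 for Nras and -0.25 for Map2k2 in CA1-like, and 1.00 for Hras, -0.091 for Braf, 0.26 for Araf, 0.38 for Map2k1 and -0.0087 for Map2k2 in inhibitory-like nuclei. For male nuclei the values were -0.11 for Braf and -0.056 for Araf in dentate granule-like, 0.14 for Hras in CA3-like, -0.0816 for Nras in CA1-like and -0.0111 for Araf in inhibitory-like nuclei.

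In nuclei with no mitochondrial UMI, an alternative chosen after seeing the data, it was -0.0492 for Araf in dentate granule-like nuclei; 0.34 for Nras, 0.15 for Hras and -0.19 for Araf in CA3-like; -0.61 for Nras, -0.45 for Hras and 0.12 for Araf in CA1-like; and 0.30 for Map2k1, 0.54 for Map2k2 and -0.41 for Mapk3 in inhibitory-like nuclei.

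Within the granule cluster of 1439 and 3270 nuclei, chosen after seeing the data, it was -0.0995 for Araf and 0.21 for Map2k1, where the class had 0.02 and -0.09. Without its cluster of 77 and 86 nuclei, also chosen after seeing the data, the cycling progenitor-like class had 0.0252 for Braf, 0.55 for Araf and 1.23 for Mapk3.

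Median-of-ratios and TMM scaling gave -0.0163 and -0.0317 for Braf in CA3-like nuclei and -0.14 and -0.15 in CA1-like nuclei, and TMM gave -0.18 for Araf in CA1-like nuclei. TMM moved the median of all genes by over 0.1 in CA2-like nuclei, by 0.122.

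With 20 UMIs and no CPM minimum, there were 973 genes at least 2-fold apart, dentate granule-like nuclei having 282 otherwise. For CA3-like nuclei the counts were 556 and 133, for CA1-like 1000 and 335, and for inhibitory-like 185 and 10. With doublets kept, 0 exchange factors and 1 feedback inhibitor passed 2-fold in CA1-like nuclei and 1 downstream gene in inhibitory-like nuclei. With median-of-ratios scaling 1 GTPase-activating protein passed in CA1-like nuclei. CA2-like nuclei have no value from the clustering without the members and lists, where they merged with CA3-like nuclei.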
